A study of Homo sapiens with 1 sample.

Results

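Human-lineage duplicated genes are genes that were copied, wholly or in part, on the branch leading to humans, and several have been studied for their part in the growth of the cerebral cortex. The 10 genes described here were picked by name from the 33538 genes of the count table. They are ARHGAP11A and its copy ARHGAP11B, SRGAP2 and its copies SRGAP2B and SRGAP2C, the 4 FAM72 genes, and TMEM14B, a primate-specific member of the TMEM14 family. The question was how much signal the copies carried beside their parents, and in which cell cycle phase and cell class.

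The data came from 1 single-cell RNA-seq library of H9, an established human embryonic stem cell line. Its cells carried the human HAR123 sequence (hHAR123, genotype WT), and dorsomorphin and SB431542 had been used to direct them towards neural progenitor cells (NPCs). The methods state that independent clones were pooled and that cells were taken before rosette selection. The clones cannot be told apart here. With 1 library there were no replicates and no test was run. Every interval given is an exact 95% interval that covers counting error only.

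The filter on genes per cell and mitochondrial share kept 13925 of 14726 barcodes, with 314660383 unique molecular identifiers (UMIs, each counting 1 captured RNA molecule) and a median of 17900 UMIs per cell. By S and G2/M gene scores, 3501 cells were G1, 5676 were S and 4748 were G2/M, with median UMIs of 13907, 17284 and 23276. No member belongs to the lists behind these scores. Unsupervised clustering, run without the members, gave 9 clusters. Clusters 1, 2, 3, 5, 6 and 7 (11988 cells) held neural progenitor and forebrain markers and were called forebrain NPC-like. Clusters 4 and 8 (1831 cells) were called contractile NPC-like, since 7 and 5 of their 8 contractile markers reached 3-fold the other cells. The summed contractile level was 14763 CPM (UMIs per 1000000 UMIs), against 2054 CPM in forebrain NPC-like cells. Cluster 9 (106 cells) was called differentiating-progenitor-like, with 9 of 9 markers of that kind at that excess. Neural progenitor markers were present in the contractile cells, with 7 of 9 at 20 CPM or more, and 5 of 8 forebrain markers reached that level. At 50 CPM, the level used to name forebrain NPC-like clusters, clusters 4 and 8 each held 5 and 3 of these markers. VIM made up 3994 of the 5829 CPM of neural progenitor markers in contractile cells. Their forebrain markers summed to 529 CPM, against 1198 CPM in forebrain NPC-like cells. Mitotic genes led cluster 3, and cluster 7 had an intermediate contractile sum of 7726 CPM.

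The roles of these genes differ. ARHGAP11A is a GTPase-activating protein that acts on RHOA and takes part in cell division, whereas ARHGAP11B is a truncated copy known for increasing basal progenitors when it is expressed in model cortex. SRGAP2 is a membrane-bending F-BAR protein of the SLIT-ROBO pathway that acts in neuronal migration and synapse maturation, and the truncated SRGAP2C protein binds and inhibits it. FAM72A binds the uracil DNA glycosylase UNG and lowers its level. TMEM14B has been linked to progenitor proliferation and cortical folding through IQGAP1.

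Reads that match several copies equally well are dropped in counting, so the share of each gene that occurs once in the genome bears on every level below. ARHGAP11A, SRGAP2 and ARHGAP11B had unique sequence in all 501 of the 100-base windows at the end of the spliced Ensembl canonical transcript. In SRGAP2B 152 of 501 such windows were unique and in SRGAP2C 243, and over the whole gene span 21.9% and 28.4% of windows were unique, against 47.6% for SRGAP2. A further annotated copy, SRGAP2D, is not in the count table. It shared 33.1% of the span windows of SRGAP2B and 26.0% of those of SRGAP2C. FAM72A and FAM72B had 0 unique windows of 501 at the 3′ end, and FAM72C and FAM72D had 180 and 212. FAM72C shared 74.4% of its span windows with FAM72D. TMEM14B was different, with 99.6% of its span unique and 87 of 104896 windows shared with its relative TMEM14C. The levels of the copies and of their parents are therefore counts of what could be assigned, not full levels. The span was unique in 77.3% of windows for ARHGAP11A. ARHGAP11B and TMEM14B can lose further reads, since another listed gene overlaps each on the same strand, over 24982 and 104960 bases, and a read that fits both genes equally is dropped.

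**Figure D1:**
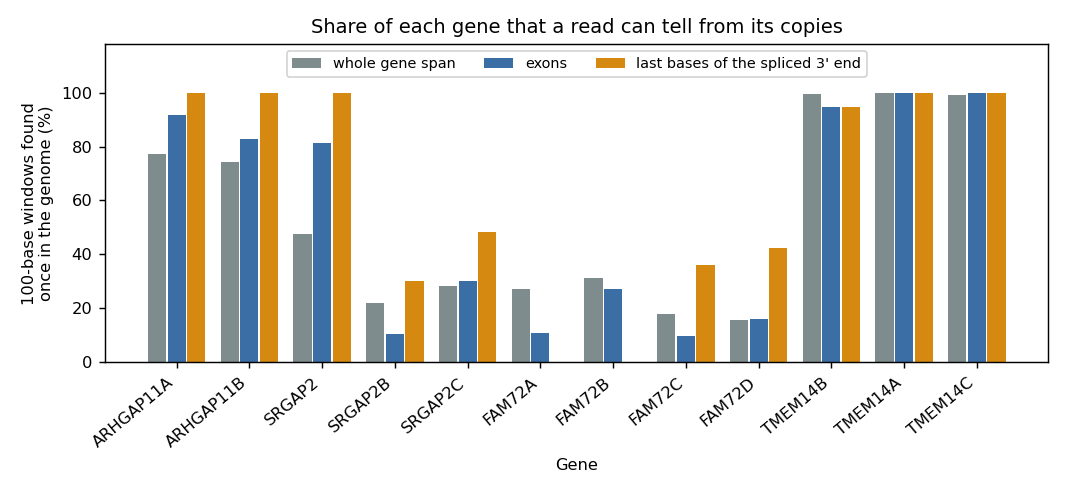
Percentage of 100-base windows that occur once in GRCh38, on the y axis, for each gene on the x axis, over the gene span, the exons and the end of the spliced transcript. FAM72A and FAM72B have no bar for the 3′ end, where 0 of 501 windows were unique, and SRGAP2B has the lowest exon share of the SRGAP2 genes.

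The ARHGAP11 pair lies on chromosome 15 (GRCh38, GENCODE annotation), ARHGAP11A at chr15:32615144-32639941 and ARHGAP11B at chr15:30624494-30649529, both on the plus strand. Sequence near their starts is shown because both rows differed more than 10-fold between G2/M and G1 cells. The 300-base RefSeq promoter window of ARHGAP11B (GRCh38.p14, chr15:30625878-30626177) aligned to ARHGAP11A at chr15:32615265-32615564 with 5 substitutions and no gap. Both stretches lie downstream of the annotated gene starts, and the RefSeq window of ARHGAP11A itself (chr15:32614894-32615193) held none of the 3 motifs described here. Counted from 1 at the 5′ end of the window, with the base of ARHGAP11B first, these were C117T, G202C, C259T, A270G and T272A. Capitals mark a CHR element (cell cycle genes homology region, searched as TTTGAA) and a CCAAT box (searched as CCAAT) in the first pair of lines, at chr15:30626033-30626062 and chr15:32615420-32615449. In the second pair, at chr15:30626067-30626092 and chr15:32615454-32615479, they mark an E2F element.
ARHGAP11B, CHR and CCAAT: tgatTTTGAAaagaggagtggaCCAATcag
ARHGAP11A, CHR and CCAAT: tgatTTTGAAaagaggagtggaCCAATcag
ARHGAP11B, E2F: ggagcgctgTTTGGCGCtgccatttg
ARHGAP11A, E2F: ggagcgctgTTTCGCGCtgccatttg
The first stretch was identical in the parent and the copy, and G202C lay inside the E2F element, whose searched forms were TTTGGCGC, TTTCGCGC, TTTGCCGC and TTTCCCGC. All motifs were searched on both strands. Among 35116 RefSeq promoter windows of the same length, 15.2% held the CHR letters, 34.6% a CCAAT box and 3.31% one of the E2F forms.

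The FAM72 genes lie on chromosome 1, and FAM72A, FAM72B and FAM72D each start beside an SRGAP2 gene that runs in the opposite direction. FAM72A at chr1:206186179-206204414 overlapped the start of SRGAP2 by 1069 bases, FAM72B overlapped SRGAP2C by 729 bases, and 445 bases separated FAM72D from SRGAP2B. RefSeq lists 4 promoter windows for FAM72A, and 1 of them (chr1:206202790-206203089, minus strand) held 3 CCAAT boxes and a CHR element on the other strand, which reads TTCAAA. Of the other windows of FAM72A, 1 held a CHR element without a CCAAT box and 2 held CCAAT boxes without a CHR element. A CHR element was found in 1 of 2 windows of FAM72C and 1 of 3 of FAM72D, and the promoter of FAM72B was not analysed here. The matches of the first window at FAM72C and FAM72D differed by A42G alone, with the base of FAM72A first. The stretch with the last 2 CCAAT boxes and the CHR element is shown because its letters were the same at chr1:206202889-206202958 (FAM72A, minus strand), chr1:143972005-143972074 (FAM72C, minus strand) and chr1:145095915-145095984 (FAM72D, plus strand).
FAM72A, FAM72C and FAM72D: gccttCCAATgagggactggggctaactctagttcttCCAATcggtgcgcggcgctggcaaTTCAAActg
CCAAT boxes were also found in every window of SRGAP2, SRGAP2B and SRGAP2C and in 1 of 2 windows of TMEM14B, none of which held a CHR or E2F element. These matches are descriptions of the letters and do not show that a factor binds there.

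ARHGAP11A differed between cell cycle phases by a wide margin, with narrow counting intervals. Its level was 4.56 CPM (4.04 to 5.13) in G1, 23.9 CPM (23.0 to 24.8) in S and 67.3 CPM (65.9 to 68.7) in G2/M cells. The G2/M level was 14.8-fold the G1 level (13.1 to 16.7), and was 18.9-fold (16.2 to 22.1) within forebrain and 7.67-fold (6.32 to 9.41) within contractile NPC-like cells. Of its 12272 UMIs 74.9% came from G2/M cells, which held 43.4% of all UMIs. At least 1 UMI was found in 67.2% of G2/M and 6.31% of G1 cells, and after thinning every cell to 5000 UMIs, which left out 28 shallower cells, in 25.2% and 1.86%. In the differentiating cells, where 88.7% of cells were G1, 4 of 106 cells had a UMI (3.77%, interval 1.04 to 9.38).

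The ARHGAP11B row was also lowest in G1 and highest in G2/M cells, with far fewer UMIs. It was at 0.344 CPM (0.213 to 0.526) in G1, 1.75 CPM (1.52 to 2.01) in S and 4.26 CPM (3.92 to 4.62) in G2/M cells, a G2/M level 12.4-fold that of G1 (8.02 to 20.1). After thinning, where ARHGAP11B was found in 2.05% of G2/M and 0.315% of G1 cells, this ratio was 6.57, against 16.7 for ARHGAP11A. The row held 808 UMIs, or 0.0658 UMIs per UMI of ARHGAP11A (0.0612 to 0.0707). That ratio was 0.0755 in G1 (0.0460 to 0.118), 0.0732 in S (0.0632 to 0.0844) and 0.0633 in G2/M cells (0.0581 to 0.0688), so the intervals overlapped. It was also similar in forebrain NPC-like cells, at 0.0665 (0.0609 to 0.0726), and in contractile NPC-like cells, at 0.0643 (0.0566 to 0.0728). Cluster 5 departed from this, at 0.0197 (0.00787 to 0.0411), from 7 UMIs of ARHGAP11B and 355 of ARHGAP11A. Per unique exon window the overall ratio was 0.150, since ARHGAP11B had fewer such windows.

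A further row of the table, AC091057.6 (ENSG00000284906), bears on this ratio and was picked after its values were seen. GENCODE, which may differ from the annotation used in counting, marks it as a readthrough gene that overlaps ARHGAP11B on the same strand over 24982 of its 25036 bases and continues past its end. It held 15559 UMIs, with 6.86 CPM in G1, 35.2 CPM in S and 80.7 CPM in G2/M cells, an 11.8-fold difference between G2/M and G1 (10.7 to 13.01). Of the UMIs in the 2 rows at this locus, the ARHGAP11B row held 4.94%. Adding both rows moved the ratio to ARHGAP11A from 0.0658 to 1.33 (1.30 to 1.36). Counts per gene do not show where within the span a UMI lies, so how many of them come from ARHGAP11B transcripts cannot be told from these data.

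The AC091057.6 to ARHGAP11A ratio was not constant across cells. It was 1.504 in G1 (1.29 to 1.76), 1.47 in S (1.40 to 1.54) and 1.20 in G2/M cells (1.17 to 1.23), and 1.37 in forebrain (1.33 to 1.41) against 1.06 in contractile NPC-like cells (1.02 to 1.11). Cluster 5 stood lower, at 0.527 (0.439 to 0.631), against 1.31 (1.26 to 1.37) in cluster 3, although 78.8% and 99.8% of their cells were called G2/M. Unlike the members, AC091057.6 was not barred from the genes used for clustering, so its differences between clusters may partly reflect that choice. The 10 leading genes of cluster 5 started with AL118516.1, AL139246.5 and THAP2 and included the mitotic genes PTTG1, CCNB2 and CDC20. All 3 rows were lower there than in cluster 3, with 18.5 against 91.0 CPM for ARHGAP11A, 0.365 against 5.78 CPM for ARHGAP11B and 9.76 against 119 CPM for AC091057.6. The nuclear RNA MALAT1 was at 6729 CPM in cluster 5, below the 8282 to 21772 CPM of the other clusters, and its part in the difference was not tested. In cluster 8, where the median mitochondrial share was 0.142%, the ratio was 0.309 (0.189 to 0.489) with 0 ARHGAP11B UMIs, which at 3 counts allows up to 1.69 CPM.

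The SRGAP2 genes lie on chromosome 1, SRGAP2 at chr1:206203346-206464436, SRGAP2B at chr1:144887265-145095528 and SRGAP2C at chr1:121184811-121392874. They were present in all phases, with a smaller difference between G2/M and G1. SRGAP2 was at 40.9 CPM (39.3 to 42.6) in G1, 46.9 CPM (45.7 to 48.2) in S and 61.0 CPM (59.7 to 62.3) in G2/M cells. SRGAP2B was at 21.4, 27.4 and 34.2 CPM and SRGAP2C at 23.0, 30.7 and 37.4 CPM in the same order. The G2/M to G1 ratio was 1.49 for SRGAP2 (1.43 to 1.56), 1.60 for SRGAP2B (1.501 to 1.698) and 1.63 for SRGAP2C (1.54 to 1.73). All 3 were lowest in G1 and highest in G2/M cells, and the intervals of their G2/M to G1 ratios overlapped.

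Each copy had more than 0.5 UMIs per SRGAP2 UMI, at 0.562 for SRGAP2B (0.548 to 0.577) and 0.620 for SRGAP2C (0.604 to 0.635). Together they exceeded the parent, at 1.18 (1.16 to 1.21), although fewer of their windows were unique. UMIs per unique window were also taken, with UMIs and windows each summed over the copies, which gives an average over the copies. This value was 1.41-fold that of SRGAP2 over the gene span, 1.499-fold at the 3′ end and 1.90-fold over the exons. Such averages are not on the scale of the joint ratio of 1.18. SRGAP2C exceeded SRGAP2B by 1.10-fold in UMIs (1.07 to 1.13). SRGAP2C also had more unique windows, 59003 against 45605 over the gene span. Per unique window SRGAP2B was the higher of these copies over the gene span, the exons and the 3′ end. The summed ratio was lower in G1, at 1.08 (1.03 to 1.15), than in S cells, at 1.24 (1.19 to 1.28). It was also lower in contractile NPC-like cells, at 1.09 (1.05 to 1.14), than in forebrain NPC-like cells, at 1.22 (1.188 to 1.248), with intervals apart. Among the clusters, cluster 5 had the lowest summed ratio, at 1.03 (0.923 to 1.14). In contractile cells in G1 the summed ratio was 0.896 (0.794 to 1.01), and SRGAP2C had 0.838 UMIs per SRGAP2B UMI (0.701 to 1.001).

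The FAM72 genes were scarce and concentrated in G2/M cells. FAM72A was at 0.246 CPM in G1, 0.427 CPM in S and 1.04 CPM in G2/M cells, from 15, 50 and 142 UMIs, a G2/M to G1 ratio of 4.23 (2.48 to 7.75). FAM72B was at 0.148, 0.436 and 2.08 CPM, a ratio of 14.1 (7.32 to 31.1), and FAM72D was at 0.246, 0.709 and 3.17 CPM, a ratio of 12.9 (7.73 to 23.2). FAM72C had 1, 25 and 164 UMIs in the same phases, so its ratio of 73.2 had an interval from 12.96 to 2909. Summed over the 4 genes, the level was 0.656 CPM in G1 and 7.49 CPM in G2/M cells, 11.4-fold higher (8.33 to 16.1). A UMI of any of them was found in 18.1% of G2/M cells and 1.11% of G1 cells.

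The copies together held most of the FAM72 UMIs that could be assigned. FAM72B, FAM72C and FAM72D together had 5.14 UMIs per FAM72A UMI (4.43 to 6.00), with 531 UMIs for FAM72D, 344 for FAM72B, 190 for FAM72C and 207 for FAM72A. Over all cells the ratio of FAM72C to FAM72A was 0.918 (0.750 to 1.12), but it was 0.0667 in G1 (0.00158 to 0.433), 0.5 in S (0.296 to 0.824) and 1.16 in G2/M cells (0.917 to 1.46). UMIs per unique window, with UMIs and windows each summed over the copies, were 2.30-fold those of FAM72A over the gene span. Over the exons they were 1.05-fold, so the excess per window depended on the windows used. This measure is an average over the copies and not their total, so it is not on the scale of 5.14. Over the span FAM72D had the highest count per unique window of the 4 genes and the lowest span share, 15.5%. It also had the most unique windows at the 3′ end, 212, against 180 for FAM72C and 0 for FAM72A and FAM72B. The part of these windows in its count was not tested. The ratio to FAM72A was lower in G1, at 1.67 (0.845 to 3.40), and in S cells, at 3.18 (2.30 to 4.46), than in G2/M cells, at 6.20 (5.19 to 7.46). It was 6.13 (5.07 to 7.45) in forebrain and 3.62 (2.81 to 4.71) in contractile NPC-like cells. FAM72A had the smallest G2/M to G1 ratio of the family, with an interval that just reached those of FAM72B and FAM72D and lay below that of FAM72C. FAM72B had 0.6 UMIs per FAM72A UMI in G1 (0.2315 to 1.463) and 2 in G2/M cells (1.629 to 2.464). For FAM72D these were 1 (0.4555 to 2.195) and 3.049 (2.517 to 3.712). The G1 values rest on 9 UMIs of FAM72B and 15 each of FAM72D and FAM72A.

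Head-to-head neighbours had unequal courses. FAM72A differed 4.23-fold between G2/M and G1 cells and its neighbour SRGAP2 1.49-fold, FAM72B 14.1-fold and SRGAP2C 1.63-fold, and FAM72D 12.9-fold and SRGAP2B 1.60-fold. The overlapping starts lie on opposite strands, and the strand used for counting is not given in the sources used here.

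TMEM14B (chr6:10747759-10852753, plus strand) was the most abundant member and nearly level across the cycle. It was at 122 CPM (120 to 125) in G1, 131 CPM (129 to 133) in S and 129 CPM (127 to 131) in G2/M cells, a G2/M to G1 ratio of 1.05 (1.03 to 1.08). Its relatives were also level, TMEM14C at 172, 170 and 165 CPM and TMEM14A at 31.0, 33.9 and 31.5 CPM. TMEM14B had 0.762 UMIs per TMEM14C UMI (0.752 to 0.772), from 0.711 (0.690 to 0.732) in G1 to 0.781 (0.765 to 0.796) in G2/M cells. A readthrough row over TMEM14B on the same strand, AL024498.2, held 793 UMIs beside its 40410. TMEM14B was lowest in the differentiating cells, at 81.6 CPM (68.3 to 96.7).

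**Figure D2:**
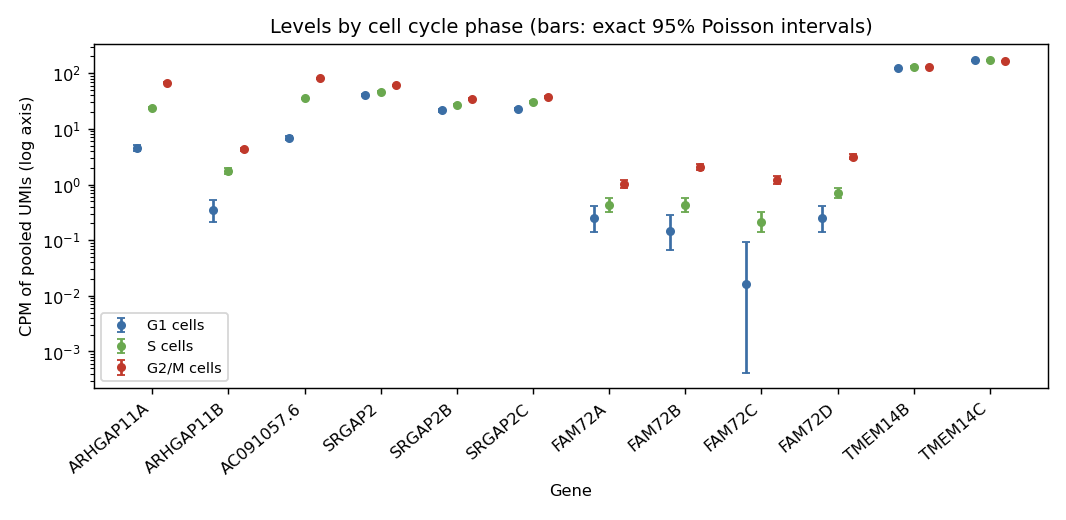
CPM on a log y axis for each gene on the x axis in G1, S and G2/M cells, with AC091057.6 and TMEM14C for comparison. Points are pooled levels of the 1 library and bars are exact 95% Poisson intervals. ARHGAP11A runs from 4.56 to 67.3 CPM, whereas TMEM14B stays between 122 and 131 CPM.

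Over the 10 members, 8 were at least 1.5-fold higher in G2/M than in G1 cells, where 7.51% of the 18696 genes with at least 100 UMIs were. The median ratio was 8.30 over the members and 0.959 over all genes tested. Copies within a family share much of their sequence, so the members are not independent genes in such counts. SRGAP2B, at 1.60, was just inside the threshold, and SRGAP2, at 1.49, was just outside it. The remaining member was TMEM14B. The call of SRGAP2 depended on the setting, since it passed after thinning (1.56), by the mean of per-cell CPM (1.62), without the highest Scrublet scores (1.52) and between sectors (1.54). Its ratio was 1.60 (1.51 to 1.68) within forebrain and 1.20 (1.10 to 1.32) within contractile NPC-like cells. SRGAP2B was at 1.71 (1.60 to 1.84) and 1.31 (1.16 to 1.499) in the same classes, so it did not pass in contractile cells. In UMIs per cell, which do not correct for the deeper G2/M cells, all 10 passed.

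Cells were also placed in 12 sectors of 30 degrees by the angle of their S and G2/M scores, where sector 4 (90 to 120 degrees) had the highest levels of TOP2A, CCNB1 and CDC20. ARHGAP11A, ARHGAP11B, AC091057.6, the 3 SRGAP2 genes, FAM72B, FAM72C and FAM72D all had their highest level in sector 4. FAM72A had it in sector 5, at 1.36 CPM from 25 UMIs, which are too few to place its peak later than theirs. ARHGAP11A ran from 4.59 CPM in sector 8 to 87.1 CPM in sector 4, and ARHGAP11B from 0.366 to 5.51 CPM between the same sectors. SRGAP2 ran from 39.7 CPM in sector 9 to 68.7 CPM in sector 4. TMEM14B ran from 121 to 141 CPM and was highest in sector 7.

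**Figure D3:**
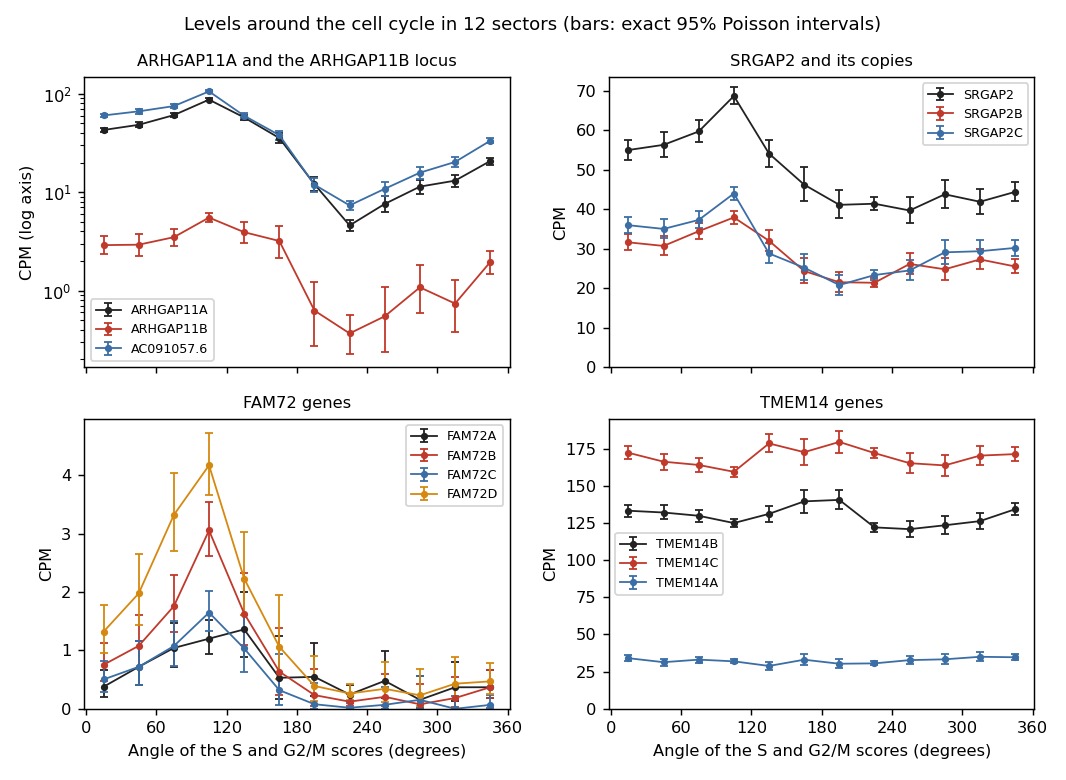
CPM by angle of the S and G2/M scores in 12 sectors, for the 4 families in separate panels, with exact 95% Poisson intervals. The ARHGAP11 panel has a log axis and the others start at 0. ARHGAP11A, ARHGAP11B and AC091057.6 are highest at 90 to 120 degrees, where ARHGAP11A is at 87.1 CPM, and TMEM14B stays between 121 and 141 CPM.

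Likeness over these 12 sectors was measured as Pearson's r of log2(CPM + 1) among 7689 other genes at 20 CPM or more (7690 for the FAM72 sum). The points share 1 library and the genes of the scores. The genes most like ARHGAP11A were KIF20B (r = 0.997), KIF14 (0.995) and ECT2 (0.995), which act in cytokinesis. ARHGAP11B followed its parent at r = 0.976 and AC091057.6 at 0.986, which would be places 40 and 18 of that list. SRGAP2 was most like CDC27 (0.978), CKAP2 (0.974) and RHNO1 (0.972), with SRGAP2B at 0.908 and SRGAP2C at 0.881. The FAM72 sum was most like PIF1 (0.990), AURKA (0.987) and G2E3 (0.986). TMEM14B had weaker matches, led by POLR2F (0.944), and TMEM14C was at 0.598. KIF20B, ECT2, CKAP2, AURKA and G2E3 are among the genes that set the G2/M score.

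Between cell classes the members differed less. One of the 10, FAM72A, had a contractile level at least 1.5-fold its forebrain level, where 11.7% of all tested genes were, and 0 of 10 were at least 1.5-fold lower, where 38.5% were. The median ratio was 1.05 over the members and 0.783 over all genes tested. In contractile NPC-like cells FAM72A was at 0.923 CPM (0.731 to 1.15), and the forebrain level was 0.558 CPM (0.465 to 0.664), from 79 and 127 UMIs, a ratio of 1.65 (1.23 to 2.21). This difference turned round when cells were thinned to 5000 UMIs, where the ratio was 0.939 and FAM72A was found in 0.274% and 0.292% of cells. It was 1.48 at Leiden resolution 0.2 and 1.37 at resolution 1, below the threshold. FAM72B, at 0.914 (0.709 to 1.17), was past the lower threshold after thinning (0.411) and at resolution 1 (0.527).

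ARHGAP11A was at 48.5 CPM in contractile and 35.7 CPM in forebrain NPC-like cells, a ratio of 1.36 (1.31 to 1.41). Of the contractile cells 52.7% were G2/M, against 31.5% of the forebrain cells. Within G2/M cells the levels were 66.8 and 67.8 CPM, a ratio of 0.986 (0.944 to 1.03), whereas in S it was 1.40 (1.28 to 1.52) and in G1 2.43 (1.88 to 3.11). ARHGAP11B likewise had a ratio of 1.32 over all cells (1.13 to 1.52) and of 0.998 within G2/M cells (0.839 to 1.19). Its G1 ratio of 1.98 rested on 7 and 14 UMIs, with an interval from 0.675 to 5.23.

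Within G2/M cells the SRGAP2 genes, FAM72B and FAM72D were lower in the contractile class. The ratio was 0.896 for SRGAP2 (0.855 to 0.937), 0.831 for SRGAP2B (0.781 to 0.884) and 0.833 for SRGAP2C (0.785 to 0.884). It was 0.596 for FAM72B (0.450 to 0.782) and 0.650 for FAM72D (0.521 to 0.806), whereas the intervals of FAM72C, at 0.777 (0.545 to 1.09), and FAM72A, at 1.21 (0.852 to 1.71), included 1. Other phases differed from this. In G1 SRGAP2 was 1.19-fold higher in contractile cells (1.08 to 1.31), SRGAP2B was at 1.08 (0.946 to 1.24) and SRGAP2C at 0.801 (0.693 to 0.923). In S cells the ratios of the SRGAP2 genes lay between 0.905 and 1.06, FAM72A was at 2.38 (1.27 to 4.34) and the FAM72 sum at 1.56 (1.14 to 2.12). AC091057.6 was at 68.9 CPM in contractile and 87.5 CPM in forebrain G2/M cells, a ratio of 0.787 (0.755 to 0.819). TMEM14B was higher in contractile cells in each phase, by 1.12-fold in G1, 1.12-fold in S and 1.09-fold in G2/M cells. The clusters behind the classes differed in depth, with a median of 45559 UMIs in contractile and 16866 in forebrain NPC-like cells, and per cell rather than per UMI all 10 members were at least 2.25-fold higher in contractile cells.

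**Figure D4:**
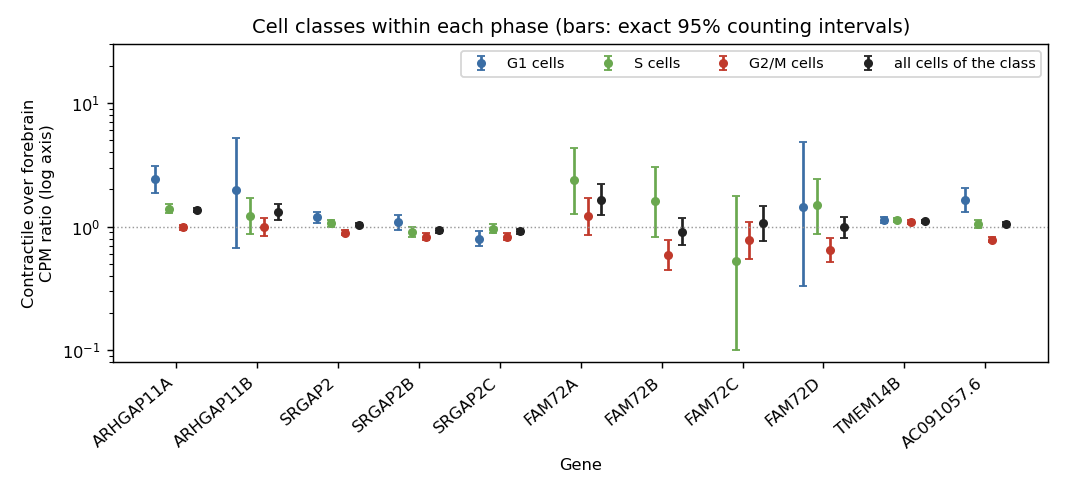
Ratio of CPM in contractile over forebrain NPC-like cells, on a log y axis, for each member and AC091057.6 on the x axis, within each phase and over all cells, with exact 95% counting intervals. Ratios from fewer than 3 UMIs in either class are not drawn. The ARHGAP11A ratio goes from 2.43 in G1 to 0.986 in G2/M cells.

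**Figure D5:**
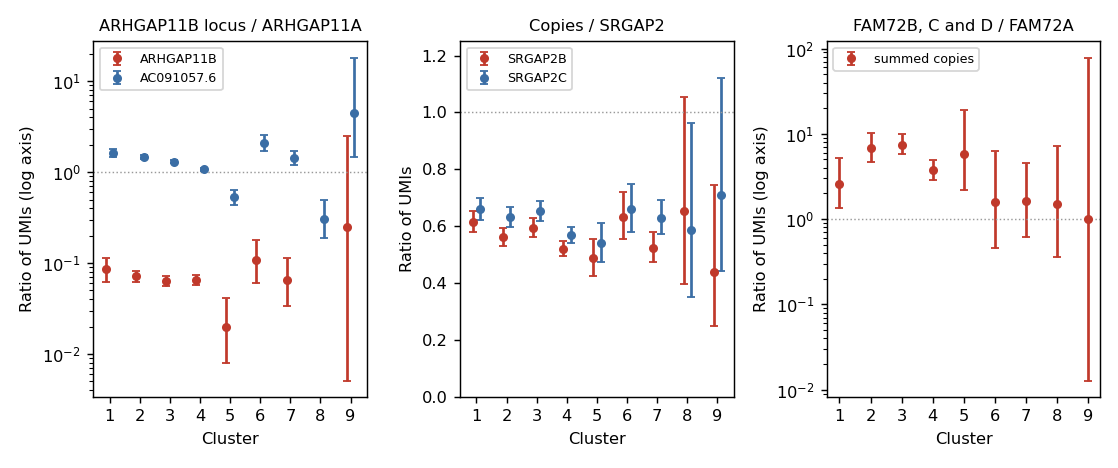
UMIs of the copies per UMI of the parent in each of the 9 clusters, with exact 95% intervals, on log axes for the ARHGAP11 and FAM72 genes and a linear axis for SRGAP2. AC091057.6 falls below 1 in clusters 5 and 8, SRGAP2B and SRGAP2C have ratios below 1 in every cluster, and no ARHGAP11B point is drawn for cluster 8, which had 0 UMIs.

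The differentiating cells gave few counts, 4 UMIs for ARHGAP11A, 48 for SRGAP2, 21 for SRGAP2B and 34 for SRGAP2C. SRGAP2 was at 29.4 CPM there (21.7 to 39.0), and the forebrain level was 51.5 CPM (50.5 to 52.4) in all and 39.7 CPM (38.0 to 41.6) in G1. The intervals of differentiating and forebrain G1 cells overlapped only between 38.0 and 39.0 CPM, which does not show that the levels were equal. Its relatives SRGAP1 and SRGAP3 went the other way. SRGAP1 was at 108 CPM in differentiating and 58.6 CPM in forebrain cells, a ratio of 1.84 (1.58 to 2.14). SRGAP3 was at 328 CPM (301 to 357) in differentiating, 131 CPM in forebrain and 15.1 CPM in contractile cells. SRGAP3 was also lower in G2/M than in G1 cells, at 79.3 against 148 CPM, and SRGAP1 was at 57.4 against 70.2 CPM. Within forebrain NPC-like cells the SRGAP3 ratio of G2/M to G1 was 0.659 (0.6405 to 0.679). Within contractile NPC-like cells it was 0.9245, with an interval that included 1 (0.787 to 1.09).

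Among 16 known partners of these proteins, 4 were at least 1.5-fold higher in G2/M than in G1 cells and 1 was lower, with a median ratio of 1.06. Over all tested genes 7.51% were higher and 14.2% lower. The higher ones were ECT2, KIF23 and ANLN, which belong to the G2/M score and so were fixed by it, and RACGAP1, a GTPase-activating protein of the dividing cell, at 69.6 CPM in G2/M and 15.7-fold its G1 level (13.9 to 17.8). RHOA, the target of ARHGAP11A, was at 242 CPM with a ratio of 1.13 (1.11 to 1.16). UNG, a gene of the S score, was at 46.7 CPM with a G2/M to G1 ratio of 1.01 (0.954 to 1.07). The lower one was the ligand SLIT1, with 521 UMIs.

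By class, 3 of 16 partners were at least 1.5-fold higher and 4 lower in contractile cells, against 11.7% and 38.5% of all tested genes. IQGAP1, the partner of TMEM14B, was 3.01-fold higher (2.92 to 3.09), SLIT2 1.67-fold (1.64 to 1.69) and RAC1 1.62-fold (1.60 to 1.64). The receptor ROBO1 was at 0.433 of its forebrain level (0.424 to 0.443), SLIT3 at 0.493 (0.464 to 0.523), SLIT1 at 0.407 (0.298 to 0.546) and UNG at 0.597 (0.572 to 0.622).

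Of 26 other duplicated genes and parents, 23 were in the table and 18 had at least 100 UMIs. None of these 18 was at least 1.5-fold higher in G2/M than in G1 cells, where 7.51% of all tested genes were. FRMPD2 alone was at least 1.5-fold lower, where 14.2% of all tested genes were. The median ratio of the 18 was 0.979. NOTCH2, a parent of the NOTCH2NL copies, was at 66.9 CPM with a G2/M to G1 ratio of 1.18 (1.14 to 1.22), and the single NOTCH2NL row was at 2.59 CPM with a ratio of 1.10 (0.908 to 1.34). SMN1 and SMN2, which are nearly identical, held 1664 and 573 UMIs. By class, LIMS1 and BOLA2B were at least 1.5-fold higher in contractile cells and 7 of 18 were lower, near the 11.7% and 38.5% of all tested genes. Among the lower ones were CHRNA7 at 0.410 (0.380 to 0.443) and GTF2IRD2 at 0.338 (0.306 to 0.373) of their forebrain levels.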

How the data were processed

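The authors deposited raw UMI counts per gene and barcode, made with Cell Ranger 7.0.1 at default settings on GRCh38 (per the labels and methods), with no normalization. Such defaults count intronic reads and drop reads that match several places or several genes. The gene annotation version is not given in the sources used here. Members, lists and thresholds were chosen with earlier results of these data known. Barcodes with 2000 to 10000 genes and a mitochondrial share below 0.1 were kept. CPM is the summed UMIs of a group of cells per 1000000. Intervals were exact (Poisson for levels, Clopper-Pearson for shares, conditional binomial for ratios). Phases came from 43 S and 54 G2/M genes. Clusters (scanpy 1.11.5, leidenalg 0.10.2, resolution 0.5) were named when 3 markers of a class reached 20 CPM and 3-fold the other cells, otherwise forebrain NPC-like when 3 forebrain and 3 neural progenitor markers reached 50 CPM. Scrublet called 1 barcode, so no doublets were removed. Unique windows were exact 100-base matches on both strands of GRCh38, at the 3′ end over the last 600 exonic bases, with gene models from GENCODE 44. Exons and 3′ ends were those of the Ensembl canonical transcripts. Named genes were the members, fixed lists of relatives, partners and other duplicated genes, and the 3 genes most alike over sectors.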

Additional observations from a re-analysis of the deposited data

Results flagged for a closer look

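The row AC091057.6, which is not among the members, held 15559 UMIs in kept cells, above the limit that a count of 0 allows. It is given here because it lies over the ARHGAP11B locus on the same strand and its UMIs are not in the ARHGAP11B row.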

How the results depend on the processing

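The ARHGAP11B to ARHGAP11A ratio stayed between 0.0658 and 0.0689 under the alternatives that keep its row, except per unique exon window, where it was 0.150, and became 1.33 when the UMIs of AC091057.6 were added. That alternative was picked with the data in view. The cause of each move below was not tested. The ratio of SRGAP2B and SRGAP2C to SRGAP2 (1.18) was 1.23 after thinning to 5000 UMIs, 1.499 per unique window of the 3′ end, 1.22 in forebrain NPC-like cells, and 1.41 per unique window of the gene span and 1.90 of the exons. The FAM72 ratio (5.14) was 6.13 in forebrain NPC-like cells and 2.30 per unique window of the gene span and 1.05 of the exons. Ratios per window set the summed UMIs of the copies over their summed unique windows against the same value for the parent. They are averages over the copies, so they are not on the scale of the joint ratios of 1.18 and 5.14. No FAM72 ratio per unique 3′ window exists because FAM72A has 0 such windows. Scaling by the gene span or exons and leaving out cluster 8 were also added after seeing the data. Members higher in G2/M numbered 8 to 10 under all alternatives. Members that differed between classes numbered 1, but 2 after thinning (FAM72B and FAM72C), 2 by the mean of per-cell CPM (ARHGAP11A and FAM72A), 10 by UMIs per cell and 0 at Leiden resolution 0.2. At resolution 1 the 1 member was FAM72B, lower, in place of FAM72A. The FAM72A class ratio turned to 0.939 after thinning, where its counts are few. Of 79 member ratios between G2/M and G1 under the alternatives, 62 stayed within the counting interval, 17 moved and 0 reversed. For the classes these numbers were 40, 29 and 1 of 70. The class alternative on all deposited barcodes was not run, since removed barcodes had no cluster. No paired analysis was possible because there is 1 library. Few assigned UMIs limit the FAM72 genes most, with 190 to 531 each. The parts of sequencing depth and of dropped shared reads in these low counts were not tested.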
